A study of Mus musculus with 12 samples.

Results

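miR-1, miR-133 and miR-206 are the muscle miRNAs, and they are followed here through the colon and the blood of mice with DSS colitis and of control mice. The members were chosen by name, in the spelling of the count table mmu-mir-1a-3p, mmu-mir-1a-1-5p, mmu-mir-1a-2-5p, mmu-mir-133a-3p, mmu-mir-133a-5p, mmu-mir-133b-3p and mmu-mir-206-3p, and are written below as miR-1a-3p and so on. All 7 are among the 1978 mature mouse miRNAs of that table, in which 573 miRNAs were at 0 in every library. Reads were counted for 5 members, and miR-1a-1-5p and miR-1a-2-5p were listed at 0 in all 12 libraries.

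A miRNA is a short RNA that guides a silencing complex to messenger RNAs, mainly through its seed, bases 2 to 8. miR-1 and miR-133a are made together from shared precursor transcripts in heart, skeletal and some smooth muscle, under muscle transcription factors such as SRF and MEF2. In cultured myoblasts miR-1 and miR-206 favour differentiation and miR-133 favours proliferation. miR-206 and miR-133b form a further cluster that is best known from skeletal muscle. The wall of the colon holds a thick smooth muscle coat, whereas blood holds no muscle.

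C57BL/6 male mice, 8 weeks old, drank water with 1.5% (wt/vol) DSS (dextran sulfate sodium, which injures the colon epithelium) for 7 days and were killed on day 8. Control mice were given no DSS and were studied over the same period. Small RNA of whole colon and of whole blood was sequenced from 3 DSS mice (mice 1, 7 and 9) and 3 control mice (mice 2, 4 and 8), which had been selected by their disease activity index, so each mouse gave a colon and a blood library. The model is an acute chemical injury, and whole colon mixes epithelium, muscle coat, stroma and immune cells.

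The grouping and the tissues follow the sample titles and the names used in the study's figures. The disease state given with the samples sets mice 1, 2 and 4 against mice 7, 8 and 9, and for each library its source and its tissue entry contradict each other. The counts bear on the tissue: the summed level of the erythroid miRNAs (miR-451a and both arms of miR-144) was 6715 to 12999 CPM in the blood libraries and 241 to 492 CPM in the colon libraries, and that of 9 epithelial miRNAs was 55653 to 204162 CPM in colon and 950 to 1324 CPM in blood. CPM are counts per 1e+06 counts of the library, scaled with TMM factors within a tissue unless stated otherwise. Total counts were 15060553 to 20106226 per colon library and 21127134 to 32944792 per blood library. miR-143-3p alone reached 254252 to 350206 CPM in colon.

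The seeds divide the detected members into 3 groups. miR-1a-3p and miR-206-3p share the seed GGAAUGU, miR-133a-3p and miR-133b-3p share UUGGUCC, and miR-133a-5p, the opposite arm of the miR-133a hairpin, has CUGGUAA. None of these seeds occurred in a non-member among the 1405 entries with a sequence. The mature sequences of the cluster of miR-206 and miR-133b are shown because each carries 1 of the shared seeds, given in capitals (RefSeq, GRCm38.p6, plus strand):
miR-206-3p: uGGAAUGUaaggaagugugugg
miR-133b-3p: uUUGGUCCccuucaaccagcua
miR-206-3p lies at chr1:20679055-20679076 and miR-133b-3p at chr1:20682834-20682855. Over 22 bases, miR-1a-3p and miR-206-3p were identical at 18, and the first of the 4 differences was at position 11, outside the seed. miR-133a-3p and miR-133b-3p were identical at 21 of 22 bases and differed only at position 22, the 3′ end. A read that ends before this base fits both, so the split of reads between miR-133a-3p and miR-133b-3p is uncertain. The hairpins of this cluster are shown because only their 3p arms (in capitals) were counted:
Mir206: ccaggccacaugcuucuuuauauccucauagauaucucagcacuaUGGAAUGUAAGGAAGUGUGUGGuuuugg
Mir133b: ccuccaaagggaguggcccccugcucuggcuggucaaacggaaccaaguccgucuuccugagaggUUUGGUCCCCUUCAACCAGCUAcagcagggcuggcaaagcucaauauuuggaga

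The members come from 3 clusters in the genome (GENCODE, GRCm38). Mir206 (chr1:20679010-20679082) and Mir133b (chr1:20682769-20682887) lie 3686 bp apart, both in exons of the lincRNA gene Gm28653, and the nearest protein-coding gene is Il17a. Mir1a-1 (chr2:180389048-180389124) and Mir133a-2 (chr2:180398379-180398482) lie 9254 bp apart on the plus strand and overlap no annotated gene of another class. Overlap with other miRNA genes was not looked for. Mir1a-2 and Mir133a-1 lie in an intron of Mib1, on its opposite strand, and in an intron of Mir133a-1hg. The last 2 clusters give the same mature miR-1a-3p and the same mature miR-133a-3p, so their share of the reads cannot be told apart.

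miR-1a-3p was the most abundant member in the colon. Its level was 2878, 2691 and 3023 CPM in control mice 2, 4 and 8, and 2249, 3009 and 1568 CPM in DSS mice 1, 7 and 9. It was the 38th most abundant of all miRNAs by mean level in colon. Mouse 9 was the lowest, and mouse 7 lay within the range of the controls, so the groups overlapped. The edgeR log2 fold change of DSS against control was -0.33 (SE 0.23, 95% interval -0.87 to 0.21, adjusted p = 0.349, n = 3 per group).

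miR-133a-3p, its cluster partner, followed nearly the same order of mice. Its level was 389, 362 and 417 CPM in control mice 2, 4 and 8, and 275, 420 and 213 CPM in DSS mice 1, 7 and 9. Mouse 7 was the highest and mouse 9 the lowest of the 6, and the groups overlapped. Its log2 fold change was -0.36 (SE 0.24, 95% interval -0.94 to 0.21, edgeR adjusted p = 0.335).

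The members of the other cluster differed in their spread. miR-133b-3p was at 37.2, 37.4 and 49.0 CPM in control mice 2, 4 and 8, and at 14.5, 42.2 and 21.8 CPM in DSS mice 1, 7 and 9. Here mouse 1 was the lowest, and mouse 7 lay inside the control range. The log2 fold change was -0.65 (SE 0.38, 95% interval -1.55 to 0.24, edgeR adjusted p = 0.279).

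miR-206-3p had the smallest spread of the members in colon, with 21.998, 23.0 and 25.0 CPM in control mice 2, 4 and 8 and 21.4, 17.1 and 19.0 CPM in DSS mice 1, 7 and 9. On this scale each DSS mouse was lower than each control, mouse 1 only narrowly, but scaled by total counts alone the groups overlapped, at 17.8 to 24.4 CPM in the DSS mice, with mouse 9 the highest of all, and 21.5 to 21.99 CPM in the controls. The log2 fold change was -0.28 (SE 0.16, 95% interval -0.66 to 0.09, edgeR adjusted p = 0.259), and -0.067 with total counts alone. Within groups its SD of log2(CPM + 1) was 0.13, against a median of 0.23 over the 542 miRNAs tested in colon.

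miR-133a-5p was counted at 56 to 107 reads per colon library. Its level was 5.80, 5.43 and 6.71 CPM in control mice 2, 4 and 8, and 4.01, 4.85 and 2.63 CPM in DSS mice 1, 7 and 9. The groups did not overlap, with total counts alone either, although mouse 7 then lay just under the controls. The log2 fold change was -0.65 (SE 0.26, 95% interval -1.25 to -0.04), with an edgeR adjusted p = 0.138 that missed the threshold.

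**Figure D1:**
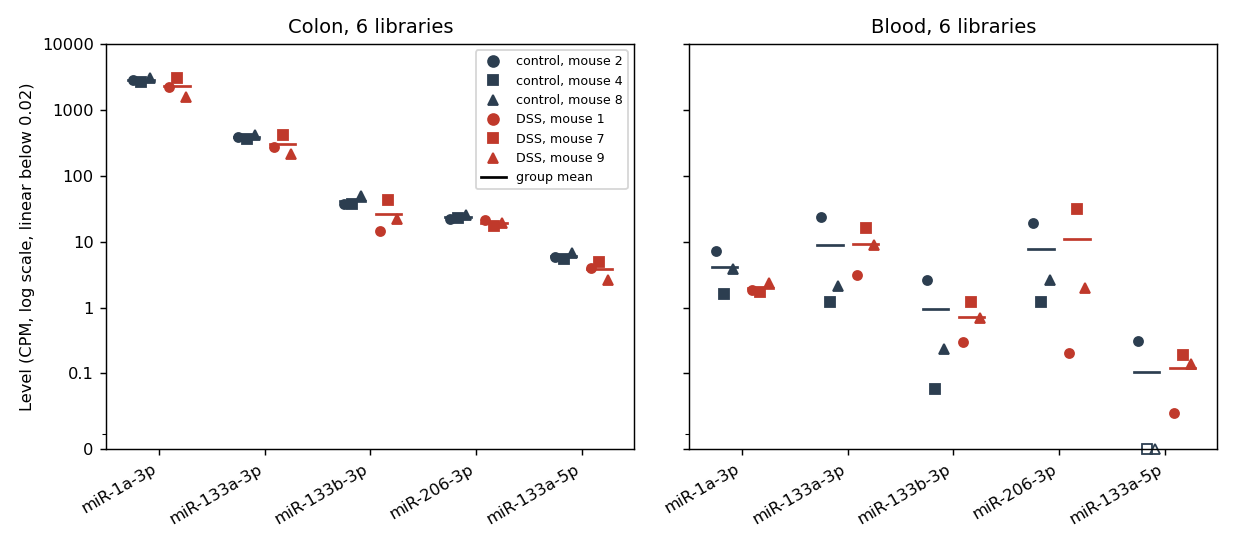
Levels of the 5 detected members in CPM (vertical axis, log scale, linear below 0.02) in the 6 colon libraries (left) and the 6 blood libraries (right), a symbol for each mouse, with control mice in dark blue and DSS mice in red, lines at the group means and open symbols at 0. In colon the ranges run from miR-1a-3p at 1568 to 3023 CPM down to miR-133a-5p at 2.63 to 6.71 CPM, and those of miR-133b-3p and miR-206-3p overlap. In blood the ranges of neighbours in the order of levels overlap throughout, and miR-206-3p spreads from 0.201 to 30.8 CPM.

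Taken by count, 0 of 5 members were significantly differentially expressed (SDE, meaning an adjusted p no higher than 0.05 together with a change of more than 1.5-fold) in colon, where 55 of 542 miRNAs, 10.1%, were SDE. The fold changes of all 5 members were below 0, as were those of 47.6% of all miRNAs tested. Their median log2 fold change was -0.36, beside 0.04 over all miRNAs tested. On the TMM scale miR-133a-5p and miR-206-3p were lower in each DSS mouse than in each control, a pattern that 16.1% of all miRNAs showed. miR-133a-5p also had an unadjusted p under 0.05, as 31.4% of all miRNAs had. The smallest adjusted p of any miRNA in colon was 0.0147. Without DSS mouse 7 the log2 fold changes of miR-1a-3p, miR-133a-3p and miR-133b-3p were -0.59, -0.67 and -1.18, and without DSS mouse 9 they were -0.12, -0.16 and -0.54. That of miR-133a-5p was -0.43 without mouse 9, that of miR-133b-3p was -0.38 without mouse 1, and no member was SDE in any of these cases. Under the grouping of the disease state label, the log2 fold changes of miR-1a-3p, miR-133a-5p and miR-206-3p were 0.04, 0.11 and 0.12. In whole tissue, fewer cells of a type and less of a miRNA per cell cannot be told apart.

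In the colon libraries miR-133a-3p and miR-1a-3p, which share clusters, kept a nearly constant proportion, and miR-206-3p and miR-133b-3p did not. The count of miR-133a-3p was 13.5%, 13.5% and 13.8% of that of miR-1a-3p in control mice 2, 4 and 8, and 12.2%, 14.0% and 13.6% in DSS mice 1, 7 and 9. The highest of these ratios was 1.14 times the lowest, whereas the level of miR-1a-3p itself differed up to 1.93 times among the same libraries. miR-133b-3p stood at 9.57% to 11.8% of miR-133a-3p in 5 colon libraries and at 5.26% in DSS mouse 1. For miR-206-3p and miR-133b-3p, neighbours in the genome, the count ratio was 0.510 to 0.615 in the controls and 1.48, 0.405 and 0.871 in DSS mice 1, 7 and 9, the highest 3.66 times the lowest. A ratio within a library does not depend on how libraries were scaled.

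The arms of the miR-133a hairpin were counted very unequally. miR-133a-3p had 67.0, 66.7 and 62.1 times the reads of miR-133a-5p in colon of control mice 2, 4 and 8, and 68.6, 86.6 and 81.1 times in DSS mice 1, 7 and 9. These ranges did not overlap, but they lay close at mouse 1 and mouse 2, and they were not tested. Both 5p arms of miR-1a were at 0 beside 261220 reads of miR-1a-3p in colon, which allows them up to 0.00115% of the miR-1a-3p count (3 reads over the colon libraries), counting error only. The 5p arms of miR-206 and miR-133b and the entry for miR-133c were also at 0. Among 167 precursors with both arms in the table and at least 1000 reads of either arm in colon, 13 had the other at 0. They included miR-206 and miR-133b, with miR-122, miR-375 and miR-429 among the rest. miR-1a, whose 5p arms are listed by gene copy, is not counted among these 13, although both arms were at 0. miR-1b-3p, a related miRNA, had 40 reads in all libraries together and miR-1b-5p had 1.

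In blood the members were at 0 to 30.8 CPM, and some differed widely between mice of the same group. miR-1a-3p was at 7.14, 1.61 and 3.83 CPM in control mice 2, 4 and 8 and at 1.84, 1.71 and 2.35 CPM in DSS mice 1, 7 and 9, from 28 to 159 reads per library. The DSS mice lay close together, inside the range of the controls. The log2 fold change was -1.10 (SE 0.47, 95% interval -2.19 to -0.02), and the edgeR adjusted p = 0.415 missed the threshold. Without control mouse 2 the log2 fold change was -0.44.

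miR-133a-3p was at 23.3, 1.21 and 2.10 CPM in blood of control mice 2, 4 and 8 and at 3.10, 15.9 and 8.91 CPM in DSS mice 1, 7 and 9. Control mouse 2 and DSS mouse 7 were the highest, 1 in each group. The log2 fold change was 0.07 (SE 1.01, 95% interval -2.25 to 2.38, edgeR adjusted p = 0.984). miR-133b-3p had only 1 to 58 reads per blood library, 2.61, 0.0576 and 0.237 CPM in control mice 2, 4 and 8 and 0.302, 1.19 and 0.693 CPM in DSS mice 1, 7 and 9. The same 2 mice were again the highest, and the log2 fold change was -0.43 (SE 1.01, 95% interval -2.73 to 1.87, edgeR adjusted p = 0.924). Its sign turned as well, to 2.17 without mouse 2, 0.047 without mouse 1 and 0.75 with limma.

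miR-206-3p was the most variable member in blood. It was at 19.1, 1.21 and 2.58 CPM in control mice 2, 4 and 8 and at 0.201, 30.8 and 1.99 CPM in DSS mice 1, 7 and 9, from 424, 21, 76, 8, 956 and 43 reads. Mice 2 and 7 stood far above the other mice, and the highest level was 153 times the lowest. The log2 fold change was 0.53 (SE 1.46, 95% interval -2.81 to 3.87, edgeR adjusted p = 0.925), an interval that leaves the direction undetermined. Its sign turned with 1 mouse, at -2.86 without mouse 7 and 2.58 without mouse 2, and that of miR-133a-3p was -0.54 and 2.53 in the same cases.

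The spread of these members was set beside that of all miRNAs of blood. Within groups, the SD of log2(CPM + 1) was 2.09 for miR-206-3p, 1.51 for miR-133a-3p, 0.73 for miR-133b-3p and 0.59 for miR-1a-3p, against a median of 0.25 over the 484 miRNAs tested. None of the 484 had a larger SD than miR-206-3p, 2 had a larger one than miR-133a-3p, 21 than miR-133b-3p and 37 than miR-1a-3p. Among miRNAs within 2-fold of the member's mean level, 1 of 98 others had a larger SD than miR-133a-3p and 8 of 100 others a larger one than miR-1a-3p. Mice 2 and 7 had the highest levels for 3 of the 4 tested members, and for 5.58% of all miRNAs tested in blood.

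For the comparison of DSS with control in blood, 0 of the 4 tested members and 0 of 484 miRNAs (0%) were SDE with edgeR, 56 miRNAs (11.6%) had an unadjusted p under 0.05, miR-1a-3p among them, and DESeq2 called 10 miRNAs and no member. The 4 members overlapped between groups, while 9.92% of all miRNAs were lower and 7.44% higher in each DSS mouse than in each control. miR-133a-5p, with 0 to 7 reads per blood library, did not pass the filter on low counts of this fit. miR-1a-3p and miR-133b-3p had fold changes below 0, as had 55.0% of all miRNAs tested.

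**Figure D2:**
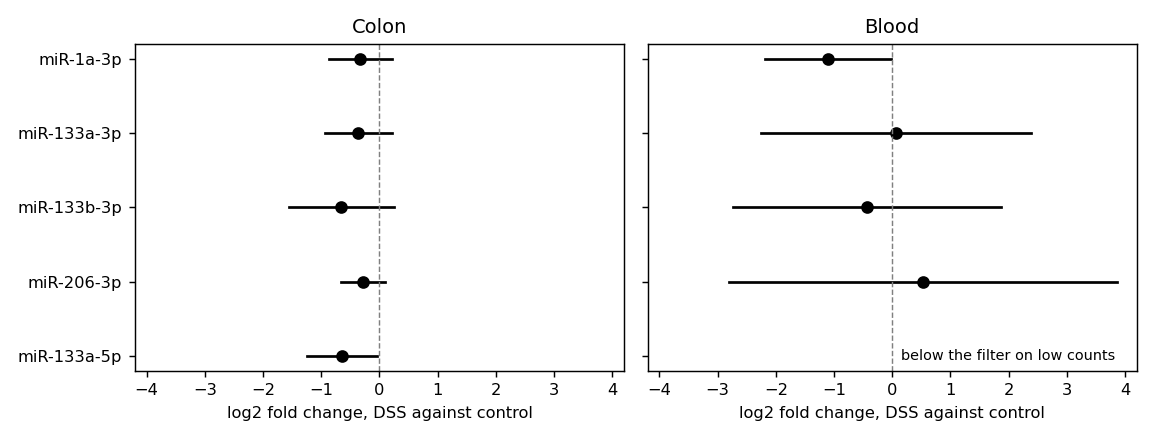
Log2 fold change of DSS against control (horizontal axis) for the detected members in colon (left) and blood (right), points with 95% intervals from edgeR's quasi-likelihood fit, n = 3 per group. In colon all 5 points lie between -0.65 and -0.28. In blood the interval of miR-206-3p reaches from -2.81 to 3.87, and miR-133a-5p did not pass the filter on low counts.

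Whether DSS acted differently on the members in the tissues was tested as an interaction over the 12 libraries. None of the 5 members and 0 of 680 miRNAs (0%) were SDE by this test, and 94 miRNAs (13.8%) but no member had an unadjusted p under 0.05. miR-133a-5p, with 0 to 7 reads per blood library, passed the filter on low counts here through its colon reads. Its difference therefore rests on very few blood reads. The blood minus colon difference of log2 fold changes was -0.47 (95% interval -1.69 to 0.75) for miR-1a-3p, with an edgeR adjusted p = 0.747. Without mouse 2 it was 0.015. The difference was above 0 for the other 4 members, and 39.9% of all miRNAs had one below 0. It was 1.28 (95% interval -2.11 to 4.67) for miR-206-3p, with an edgeR adjusted p = 0.749. The difference for miR-206-3p turned to -0.21 with the mouse as a block and to -2.47 without mouse 7. That of miR-133b-3p was 0.60, and -0.10 without mouse 8. Those of miR-133a-3p and miR-133a-5p were 0.81 and 1.09, and 0.20 to 3.02 and 0.32 to 5.55 with a mouse left out. The edgeR adjusted p of the other 3 members was 0.683 to 0.860.

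The make-up of the muscle miRNA reads was unlike in the tissues. Among the reads of the members, miR-1a-3p made up 85.9% to 87.7% in every colon library and 3.43% to 43.8% in blood. miR-133a-3p accounted for 10.7% to 12.02% of them in colon and for 24.0% to 63.3% in blood. miR-206-3p accounted for 0.489% to 1.04% in colon, whereas in blood it ranged from 3.69% to 61.8%. All members together held 0.235% to 0.364% of the reads of a colon library and 0.000300% to 0.00469% of those of a blood library. In blood, miR-133a-3p had 3.26, 0.750 and 0.549 times the reads of miR-1a-3p in control mice 2, 4 and 8 and 1.68, 9.32 and 3.78 times in DSS mice 1, 7 and 9, so the constant proportion seen in colon was not seen there. By contrast, miR-133b-3p stood at 7.49% to 11.2% of miR-133a-3p in the 4 blood libraries with at least 10 reads of both, close to its proportion in colon. These miRNAs are nearly identical in sequence, and the part of shared reads in this proportion was not tested.

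**Figure D3:**
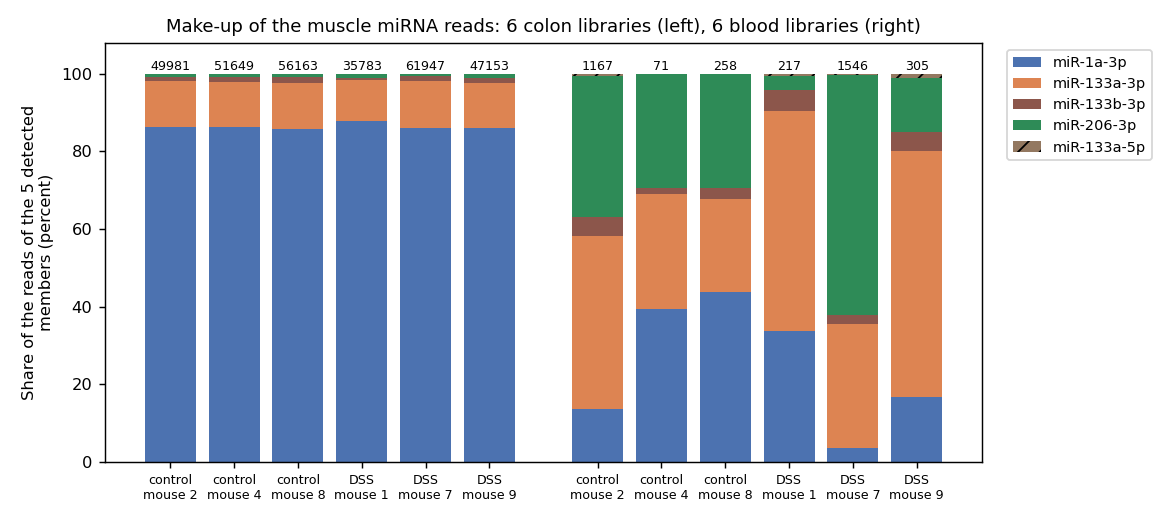
Share of each member in the reads of the 5 detected members (vertical axis, percent, stacked to 100) in each colon library (left 6 bars) and blood library (right 6 bars), with the number of member reads above each bar. miR-1a-3p fills 85.9% to 87.7% of every colon bar. The blood bars, which rest on 71 to 1546 reads, differ from mouse to mouse, with miR-206-3p at 61.8% in DSS mouse 7.

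Levels in colon and blood were compared over the 6 mice on a common scale, CPM with TMM factors over all 12 libraries. On this scale miR-1a-3p was at 1186 to 2341 CPM in colon and 1.68 to 7.82 CPM in blood, a difference of 8.76 in mean log2(CPM + 1). The differences were 4.92 for miR-133a-3p, 3.76 for miR-133b-3p and 2.05 for miR-133a-5p. With 0 to 7 reads in blood, the value of miR-133a-5p depends on the pseudocount and was 4.22 with 0.1 in place of 1. These 4 members were higher in colon in 6 of 6 mice, each with p = 0.00216 in a two-sided exact permutation test, the smallest p this design can give, and 0.00271 after adjustment over the 5 members. The exact sign-flip test within mice gave p = 0.0312 for each of them, also the smallest possible. Both tests were run on the members alone, so the share of all miRNAs with this pattern was not obtained.

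miR-206-3p did not pass the same test. It was at 13.3 to 19.3 CPM in colon and 0.335 to 47.4 CPM in blood on the common scale, with a difference of 1.52 (exact permutation p = 0.0779, exact sign-flip p = 0.125). It was higher in colon in 4 of 6 mice, and in control mouse 2 and DSS mouse 7 the blood level was 119% and 357% of the colon level. Without mouse 2 the difference was 1.90, and without mouse 7 it was 2.20, each with an exact permutation p = 0.0476. Without mouse 1, 4, 8 or 9 it was 1.10, 1.23, 1.50 or 1.39, with exact permutation p-values of 0.167 to 0.198.

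Relative to colon, blood held the members at very different fractions. For miR-1a-3p the blood level was 0.0797% to 0.341% of the colon level of the same mouse (median 0.203%). For miR-133a-3p it was 0.444% to 8.25% (median 4.37%), for miR-133a-5p 0% to 7.89% (median 4.42%), for miR-133b-3p 0.204% to 9.63% (median 4.68%) and for miR-206-3p 2.08% to 357% (median 17.2%). Over the 680 miRNAs of the common fit the median of this percentage was 51.5%, and 15.1% of miRNAs had a lower value than miR-1a-3p. For miR-133a-3p, miR-133a-5p, miR-133b-3p and miR-206-3p this share was 29.1%, 29.6%, 29.9% and 40.3%. The smooth muscle miRNAs miR-143-3p, miR-143-5p, miR-145a-5p and miR-145a-3p had medians of 0.122%, 0.181%, 0.106% and 0.121%, inside the range of miR-1a-3p. Their values in single mice were 0.0597% to 0.526% and, apart from miR-145a-5p in mouse 1, lay below the lowest value of miR-133a-3p. The mice with the highest blood percentages were mice 2 and 7 for miR-133a-3p, miR-133b-3p and miR-206-3p, mice 2 and 8 for miR-1a-3p, and mice 7 and 9 for miR-133a-5p. For miR-133a-5p mice 7, 9 and 2 were nearly level, at 7.89%, 7.88% and 7.45%, from 6, 3 and 7 blood reads. Among the smooth muscle miRNAs the highest were mice 1 and 8 for miR-143-3p and miR-145a-3p, mice 1 and 4 for miR-143-5p, and mice 1 and 9 for miR-145a-5p. The ranks of miR-143-5p and miR-145a-5p rest on only 4 to 19 and 6 to 58 reads per blood library.

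**Figure D4:**
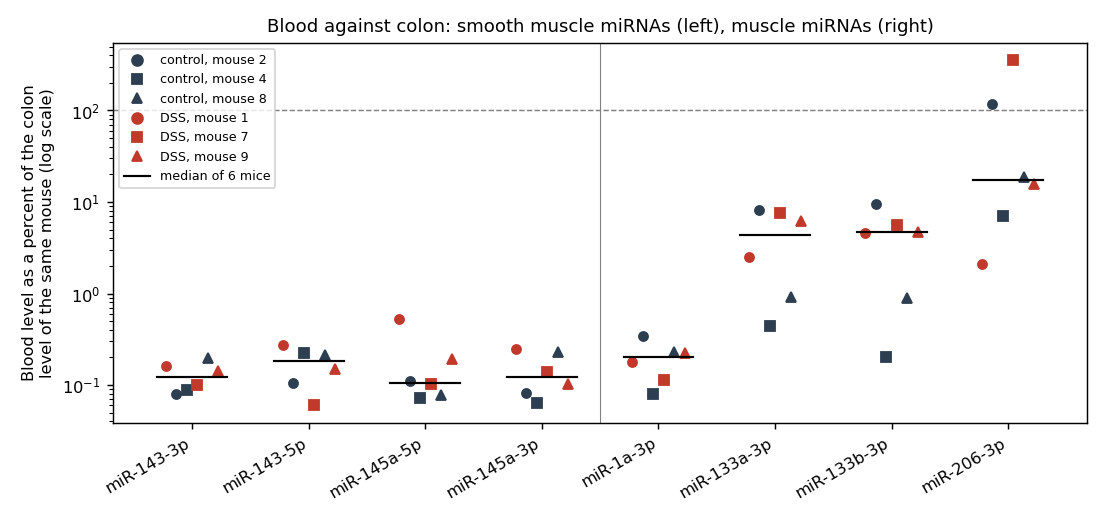
Blood level as a percent of the colon level of the same mouse (vertical axis, log scale, common TMM scale) for 4 smooth muscle miRNAs (left) and 4 members (right), a symbol for each of the 6 mice, lines at the medians, and a dashed line at 100%. Medians run from 0.106% to 0.181% for the smooth muscle miRNAs, 0.203% for miR-1a-3p and 17.2% for miR-206-3p, which passes 100% in mice 2 and 7.

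miRNAs of other muscle types were read beside the members. Those of the heart and slow skeletal muscle, which lie within myosin heavy chain genes, were nearly missing from colon: miR-208a and miR-208b had no read in either arm apart from 1 of miR-208b-3p, and miR-499-5p had 4 to 13 reads per colon library. miR-499-5p had 37 to 221 reads per blood library, at 2.13 to 6.00 CPM in the controls and 1.71 to 5.56 CPM in the DSS mice, with a log2 fold change of -0.18 (edgeR adjusted p = 0.925). The smooth muscle miRNAs of the miR-143 and miR-145 cluster, 4 rows, showed 0 SDE in colon and 0 in blood. Their log2 fold changes in colon were -0.02 for miR-143-3p, 0.03 for miR-143-5p, -0.07 for miR-145a-3p and -1.52 for miR-145a-5p. The last of these came with a wide spread, 233 to 1623 CPM in the DSS mice and 645 to 4576 CPM in the controls (edgeR adjusted p = 0.316). In blood their fold changes were -0.18, -0.42, 0.03 and -0.82 in the same order.

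miRNAs of other cell types were read in the same colon libraries, where 10.1% of all miRNAs were SDE and none was once mouse 2, 4, 7 or 8 was left out. With edgeR, of 9 epithelial miRNAs 4 were SDE and lower, with log2 fold changes from -1.29 (miR-192-5p) to 0.06 (miR-375-3p), and their summed level was 55653 to 136222 CPM in the DSS mice and 163013 to 204162 CPM in the controls. Of 4 myeloid miRNAs 2 were SDE and higher, with fold changes from 1.04 (miR-142a-5p) to 1.93 (miR-223-3p), and a summed level of 369 to 1123 CPM in the DSS mice and 254 to 379 CPM in the controls. Of 5 stromal miRNAs miR-199a-5p was SDE and higher, with a log2 fold change of 0.62, and the summed level was 5070 to 5775 CPM in the DSS mice and 3544 to 3750 CPM in the controls. None of 2 endothelial, 2 tested erythroid and 4 neuronal miRNAs was SDE with edgeR. DESeq2 called 7 epithelial miRNAs lower and 3 myeloid miRNAs higher in colon, 1 neuronal miRNA (miR-9-3p, log2 fold change 0.65) higher, and no stromal miRNA. With DESeq2 miR-199a-5p was at 0.55, which missed only the 1.5-fold change (Wald test adjusted p = 0.00765). The smooth muscle sums overlapped, at 259013 to 350554 CPM in the DSS mice and 281473 to 359620 CPM in the controls. The part of tissue make-up in the members' values was not tested. In blood 0 miRNAs of these lists were SDE with edgeR, while DESeq2 called miR-223-3p (log2 fold change 1.38), miR-126a-3p (-1.41) and miR-215-5p (-0.80), of the myeloid, endothelial and epithelial lists.

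The miRNAs whose pattern over the 6 colon libraries was most like that of miR-1a-3p were sought among 268 non-members with a mean of at least 10 CPM. Likeness was the root mean square difference of log2(CPM + 1) after each miRNA was centred on its own mean. miR-181d-5p (0.11), miR-30a-5p (0.16) and let-7g-5p (0.17) were nearest to miR-1a-3p, where the median non-member was at 0.43, and miR-133a-3p was nearer than any of them at 0.06. For miR-133a-3p the nearest were miR-181d-5p (0.17), miR-30a-5p (0.18) and miR-30a-3p (0.21). miR-133b-3p and miR-206-3p lay farther from miR-1a-3p, at 0.41 and 0.33. These values rest on the same 6 libraries and their scaling, and they are a description.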

How the data were processed

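Small RNA of colon and blood from 6 mice was sequenced on the Illumina HiSeq system. The authors trimmed the reads with Flexbar, collapsed them with fastx-toolkit and counted them with the quantifier of miRDeep2 (2.0.1.0) on the mature miRNAs of miRBase (22), and the deposited counts are unnormalized. For each tissue the authors added a table of normalized signal, the count divided by a DESeq2 (1.22.2) size factor, used here only in an alternative. The sources used here name no molecular identifiers, so the limit given for a count of 0 covers counting error only. The 95% intervals of fold changes come from the fit over mice.

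Counts of each tissue were tested with edgeR (4.0.16; filterByExpr, TMM factors, quasi-likelihood test, Benjamini-Hochberg adjustment over all miRNAs tested) in R (4.3.3), without covariates. Levels between tissues were compared as log2(CPM + 1). Ratios needed at least 10 reads of both miRNAs. DESeq2 (1.42.0), limma (3.58.1), other scalings and filters, the label grouping and leaving out each mouse were alternatives. The scripts were tested on simulated counts. Colon and blood libraries with the same number come from the same mouse. The correlation of their deviations from the group means over 288 miRNAs was -0.28 to 0.07.

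The members and lists were chosen with earlier results of these data known. Named miRNAs are the members, their other arms and copies, the smooth muscle list, the 3 miRNAs most like miR-1a-3p and miR-133a-3p in colon, and the extremes of the other lists. Other precursors with an arm at 0, miR-199a-5p, miR-9-3p, the listed miRNAs that DESeq2 called in blood and the miRNAs most like the members in blood were named after their values were seen, and the comparisons of spread and of blood percentages with all miRNAs were also added then. Figures and tables were made in Python (3.11.15). The complete sequences of the other members are not printed here.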

Additional observations from a re-analysis of the deposited data

How the results depend on the processing

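No member was SDE under any alternative in colon, in blood or in the interaction. Of the values of single members under the alternatives, 220 kept their direction and their side of the threshold, 18 changed sign, and 3 passed the threshold, all for miR-206-3p between the tissues. The number of all miRNAs SDE in colon (55) was 74 with DESeq2, 76 with no filter on low counts, 16 with RLE factors, 8 with upper-quartile factors, 6 with limma on the normalized signal, 0 with all 12 libraries in 1 fit, 0 under the label grouping, 47 to 54 under the other scaling, filter, dispersion and entry choices, and 0 to 44 with a mouse left out (0 without mouse 2, 4, 7 or 8). In blood (0) it was 10 with DESeq2, 25 with no filter on low counts, 1 with all 12 libraries in 1 fit and 0 to 1 with a mouse left out (1 without mouse 2). For the interaction (0), pairing by mouse as a replicate block gave 1, and leaving out a mouse gave 0 to 2 (2 without mouse 1). In colon all 5 members stayed below 0 under all alternatives but the label grouping, where miR-1a-3p was 0.041, miR-133a-5p 0.11 and miR-206-3p 0.12. In blood limma gave 0.75 for miR-133b-3p and -0.64 for miR-206-3p, and the label grouping gave 0.42 for miR-1a-3p, 0.46 for miR-133b-3p and -0.80 for miR-206-3p. With a mouse left out, blood values were -0.54 to 2.53 for miR-133a-3p, -0.98 to 2.17 for miR-133b-3p and -2.86 to 2.58 for miR-206-3p. The interaction of miR-206-3p was -0.21 with the replicate block. With a mouse left out, interaction values were -0.83 to 0.015 for miR-1a-3p, -0.10 to 3.03 for miR-133b-3p and -2.47 to 3.09 for miR-206-3p. Scaling by total counts alone moved the median of all miRNAs in colon from 0.04 to 0.26 and that of the members from -0.36 to -0.17. It also gave a difference of 2.14 between colon and blood for miR-206-3p (exact permutation p = 0.0411). The cause of these differences was not tested. miR-133b-3p and miR-206-3p had no value in blood under a minimum of 10 reads in every library.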

Other observations

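In blood, the non-member most like miR-206-3p over the 6 libraries, of 480 compared by the measure used in colon, was miR-127-3p, at a root mean square difference of 1.16 on the log2 scale (median of the non-members 1.72). It was also nearest to miR-133a-3p, at 0.76 (median 1.31). miR-127-3p comes from the imprinted miRNA cluster between Dlk1 and Dio3. Its level was 12.9, 4.03 and 2.88 CPM in control mice 2, 4 and 8 and 2.21, 7.61 and 5.08 CPM in DSS mice 1, 7 and 9, with the same mice highest as for miR-133a-3p, miR-133b-3p and miR-206-3p. The next in order were miR-10b-5p (1.31) and miR-205-5p (1.34) for miR-206-3p, and miR-92b-3p (0.92) and miR-434-3p (0.97) for miR-133a-3p. These values describe 6 libraries and were not tested.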
